A study of Mus musculus with 12 samples.

Results

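IRAK2 knockout macrophages were compared with wild-type macrophages 8 h after the bacterial lipopeptide MALP-2 was added. The comparison used 2 of the series' 12 arrays, 1 per genotype, and covered every gene with a probeset in the deposited log2 table. The cells were peritoneal macrophages recruited with thioglycollate from wild-type, IRAK2 knockout and IRAK1/IRAK2 double-knockout mice, taken at 0, 2, 4 and 8 h of MALP-2 at 100 ng/ml. Each genotype and time had 1 Affymetrix array, so no value below has a spread between mice, and sizes stand in place of a replicate test. The labels do not give strain, age, sex, the number of mice pooled or whether the mice were littermates. The 0 h arrays of the same genotypes, which received no MALP-2, gave the unstimulated difference that is set beside the results. No array without MALP-2 was made at 2, 4 or 8 h. Changes from 0 h due to MALP-2 therefore cannot be told apart from those of time in culture. The 2 h and 4 h arrays and the double-knockout 8 h array are given as values where a result turns on them.

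MALP-2 is a mycoplasmal lipopeptide sensed by the Toll-like receptor pair TLR2 and TLR6. The adaptor MyD88 then assembles IRAK4 with IRAK1 and IRAK2, which pass the signal through TRAF6 to the I-kappa-B kinases and the MAP kinases, and so to NF-kB and AP-1. In macrophages this pathway is known for inducing cytokines, chemokines and prostaglandin synthesis, and IRAK2 is known as the IRAK kinase linked to the later part of that response.

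Irak2 itself, read by 1 probeset, measured 6.21, 6.69, 6.29 and 5.77 log2 units in wild type at 0, 2, 4 and 8 h. In the IRAK2 knockout it measured 5.63, 5.51, 4.71 and 4.65. It was lower in the knockout at every time, and a signal remained (-1.26 ± 0.24 SE at 8 h, adjusted p = 0.079 in the limma fit described below). The position of that probeset relative to the deleted segment was not analysed here, so this value does not check the label. Irak1, the sister kinase, differed by 0.04 at 8 h. Of the 30 genes nearest to Irak2 on its chromosome, 15 on each side, 12 were measured at 8 h and 0 differed by 2-fold. All 11 macrophage marker genes with a probeset were above the floor on the wild-type and knockout arrays at 0 h and 8 h. The floor was 3.83, the median of all values over 11 arrays, and a gene counted as measured at 8 h when the higher of its wild-type and knockout values reached it. By that rule 11366 of 18193 genes were measured. The 8 h arrays of wild type and knockout correlated at 0.989 over genes and the 0 h arrays at 0.993. The SD of the knockout-minus-wild-type difference over these genes was 0.249 at 0 h, 0.265 at 2 h, 0.306 at 4 h and 0.383 at 8 h. The genes were chosen on their higher 8 h value, which favours wide gaps at 8 h over those at other times. With 1 array per point, these SDs also hold the noise of the arrays.

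The promoters below are shown because their genes are induced in wild type, lie at opposite ends of the 8 h comparison and were chosen for holding an NF-kB match in the 150 bases before the start. Il6 and Cxcl1 are those with such a match among the 15 induced genes furthest below wild type, and Nfkbie and Sod2 those among 10 strongly induced genes within 0.3 log2 of it. Each line holds the 150 bases before the first listed RefSeq start on build GRCm38.p6, 5′ to 3′ on the gene's strand, and capitals mark matches to the NF-kB consensus. The windows are chr5:30012964-30013113 for Il6, chr5:90891095-90891244 for Cxcl1, chr17:45555550-45555699 for Nfkbie and chr17:13007689-13007838 for Sod2, all on the + strand. The match of Il6 lies at -44 to -35 from the start, that of Nfkbie at -106 to -97 and that of Sod2 at -83 to -74. The capitals of Cxcl1, at -71 to -61, hold overlapping matches on both strands.
Il6: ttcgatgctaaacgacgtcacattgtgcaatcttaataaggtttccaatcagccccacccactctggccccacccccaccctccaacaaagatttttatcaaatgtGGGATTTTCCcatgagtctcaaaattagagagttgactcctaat
Cxcl1: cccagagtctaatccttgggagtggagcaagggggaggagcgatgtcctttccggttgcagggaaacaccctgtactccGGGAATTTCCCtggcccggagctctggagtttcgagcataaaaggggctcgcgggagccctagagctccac
Nfkbie: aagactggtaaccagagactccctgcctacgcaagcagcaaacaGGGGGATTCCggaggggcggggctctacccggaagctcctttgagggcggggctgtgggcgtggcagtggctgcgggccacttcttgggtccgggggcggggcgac
Sod2: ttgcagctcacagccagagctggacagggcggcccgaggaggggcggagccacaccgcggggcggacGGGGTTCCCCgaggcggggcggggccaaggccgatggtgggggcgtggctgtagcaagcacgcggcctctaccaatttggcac

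Over the 250 bases before the start, searched on both strands, such a match was in 7.01% of all 27025 promoters and in 8.65% of the 9238 measured genes with a window. It was in 14.4% of the 445 induced genes with a window. Among induced genes it was in 16 of 85 at least 2-fold lower in the knockout (18.8%) and in 17 of 122 within 0.3 log2 of wild type (13.9%). The C/EBP motif TTNCNNAA was in 41.2% of the former and 37.7% of the latter, against 36.4% of induced genes and 28.3% of measured genes. The interferon response element AAANNGAAA was in 7.06% and 11.5%, against 11.5% and 7.21%. AP-1 sites, searched as TGANTCA, were in 10.6% and 9.02%, against 7.19% and 4.23%. The cyclic AMP element TGACGTCA was in 2.35% and 0.82%, against 1.57% and 2.72%. The TATA box TATAAA was in 14.1% and 13.1%, against 9.66% and 6.66%. With each gene's 0 h difference subtracted, the NF-kB match was in 12 of 75 lower genes and 14 of 104 near wild type. The interferon response element was then in 6 and 17 of them, and the cyclic AMP element in 1 and 2. These shares are descriptions of letters in a window, and a window without a match says nothing about binding elsewhere. Il1b, for instance, had no NF-kB match in its window, but held a TATA box at -31 to -26 and a C/EBP match at -91 to -84.

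At 8 h, 137 measured genes were at least 2-fold lower in the IRAK2 knockout (1.21%) and 78 were at least 2-fold higher (0.686%). In unstimulated cells the corresponding counts were 36 (0.317%) and 16 (0.141%) of 11360 genes. Of the 137 lower genes, 112 were induced in wild type, meaning at least 2-fold above 0 h at 8 h, 2 were repressed by the same measure and 23 were neither. Of the 78 higher genes, 52 were repressed, 1 was induced and 25 were neither. The larger gaps lay on the lower side: 27 genes were at least 4-fold lower and 9 at least 8-fold lower, whereas 4 were at least 4-fold higher and 0 at least 8-fold higher.

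Among the 574 induced genes, 511 lay below wild type and 63 above it at 8 h. At least 2-fold lower were 19.5% of them, and 0.174% were at least 2-fold higher. Their median difference was -0.00 at 0 h, -0.05 at 2 h, -0.21 at 4 h and -0.52 at 8 h, a gap that widened at each later time. Among the 621 repressed genes measured at 8 h, 538 lay above wild type, 8.37% were at least 2-fold higher and 0.322% at least 2-fold lower. Their median difference went from -0.10 at 0 h through 0.07 and 0.13 to 0.39 at 8 h. The 10171 genes that were neither had a median of -0.01 at 8 h, with 0.226% at least 2-fold lower and 0.246% higher. The wild-type 8 h array enters both these classes and the difference, which by itself pushes the 8 h medians in these directions. The wild-type 0 h array likewise enters the classes and the 0 h difference, which by itself pushes the 0 h medians the opposite way. With classes chosen on the wild-type 4 h array instead, the median was -0.44 over 606 induced genes, with 97 at least 2-fold lower and 1 higher, and 0.31 over 766 repressed genes, with 2 lower and 46 higher. Those classes still use the wild-type 0 h array, and their 0 h medians were 0.02 and -0.09.

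**Figure D1:**
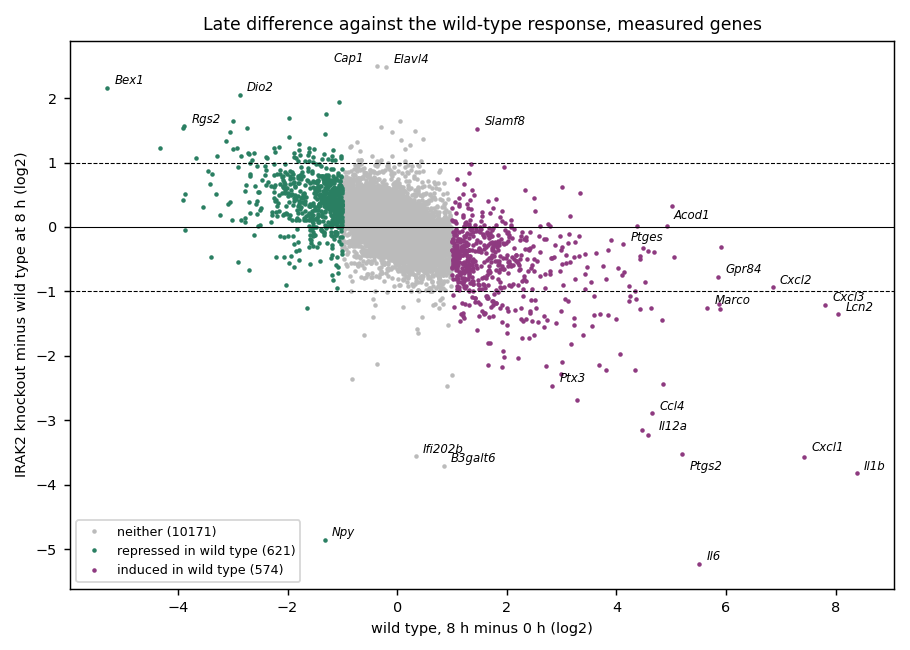
Each point is a measured gene, placed by its wild-type change from 0 h to 8 h (x axis, log2) and its IRAK2 knockout minus wild-type difference at 8 h (y axis, log2), with 1 array per group. Dashed lines mark 2-fold. Most induced genes (purple) lie below 0 and most repressed genes (green) above it, and Il6, at -5.23, is the lowest point.

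A linear model gave the only available p-value. It was fitted with limma to the 9 stimulated arrays, with time as a factor and a straight line in log2 time for each knockout, and was tested at 8 h. Its p-value sets the 8 h gap against how far both knockouts' gaps from wild type stray from straight lines in log2 time. A gap that grows smoothly but along a curve therefore counts as spread too. The spread between mice does not enter it. Of 10852 genes tested, 61 were called lower (0.562%) and 26 higher (0.24%) at an adjusted p under 0.05. Of the 567 induced genes tested, 45 were called lower and 1 higher, and of the 620 repressed genes 1 was called lower and 19 higher. Without the double-knockout arrays the counts were 567 and 519, and all 87 genes called from 9 arrays were among them. With the probesets of each gene averaged they were 32 and 4, of which 35 were among the 87. Over 8 alternative settings of the fit, 31 of the 61 lower and 4 of the 26 higher genes were called each time they were tested. Among the named genes, those lower ones were Il6, Cxcl1, Ptgs2, Il12a, Ptx3, Wfdc21, Mir155hg, Ccl8, Tnf, Il1a, Fst, Egr1, Ier3, Mki67, Cd69, F3, Hcar2, Gpr18, Adgrl2, Cxcl14, Npy, B3galt6 and Ifi202b, and the higher ones Slamf8, Bex1 and Zfp994. The other called genes named below lost the call in at least 1 setting, with averaged probesets in all cases but Ighm. That setting refits all genes together. Ccl4, Ccl7, Cish, Cxcr4 and Gpr176 have 1 probeset each, so they lost the call with their own values unchanged. In the text below, "fell" and "rose" are used only of genes called by this model, and SE is the model's.

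Il6, which encodes interleukin-6, stood furthest apart. Wild type measured 3.47, 6.36, 7.98 and 8.98 at 0, 2, 4 and 8 h, and the knockout 3.42, 5.79, 4.82 and 3.75. The knockout thus started near wild type, reached most of its 2 h level, and was back under the floor at 8 h while wild type was still climbing. At 8 h it was 37.4-fold lower, a lower limit since the knockout value lay under the floor, against a difference of -0.04 at 0 h. Il6 fell in the limma fit (-5.31 ± 0.21 SE, adjusted p = 3.02e-04).

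Il1b, which encodes the precursor of interleukin-1 beta, showed a like early induction and a later gap. Wild type measured 3.90, 12.33, 12.33 and 12.29 and the knockout 4.16, 12.22, 11.10 and 8.46. The genotypes differed by -0.10 at 2 h, and wild type then held its level to 8 h while the knockout did not. The 8 h difference of -3.82, or 14.2-fold, compared with 0.26 at 0 h. Its adjusted p in the limma fit was 0.069 (-3.58 ± 0.63 SE), so it was not called.

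Cxcl1, a neutrophil-attracting chemokine, measured 5.21, 12.36, 12.46 and 12.64 in wild type against 4.71, 11.87, 10.77 and 9.07 in the knockout. Wild type stayed on a plateau from 2 h, and the knockout declined from it. At 8 h the knockout was 11.8-fold lower, with a difference of -0.50 already at 0 h. Cxcl1 fell in the limma fit (-3.45 ± 0.30 SE, adjusted p = 0.0093). Ptgs2, the inducible cyclooxygenase of prostaglandin synthesis, measured 5.42, 10.89, 10.77 and 10.63 in wild type against 4.83, 10.49, 9.57 and 7.11 in the knockout. It followed the course of Cxcl1, with a difference of -0.60 at 0 h and -3.52 at 8 h (adjusted p = 0.030 in limma). Its second probeset gave -2.30 at 8 h.

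Il12a, the p35 subunit of interleukin-12, measured 3.70, 6.63, 7.11 and 8.28 in wild type against 4.16, 6.30, 5.94 and 5.05 in the knockout. Wild type went on climbing after 2 h whereas the knockout declined. The knockout was 9.41-fold lower at 8 h, although it had been 0.45 above wild type at 0 h (adjusted p = 0.0081 in limma). Ccl4, a CC chemokine that draws monocytes and T cells, measured 4.66, 9.10, 10.004 and 9.31 in wild type against 5.16, 9.01, 8.62 and 6.42 in the knockout. It was level with wild type at 2 h, and 7.43-fold lower at 8 h, against a 0 h difference of 0.50 (adjusted p = 0.037 in limma).

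**Figure D2:**
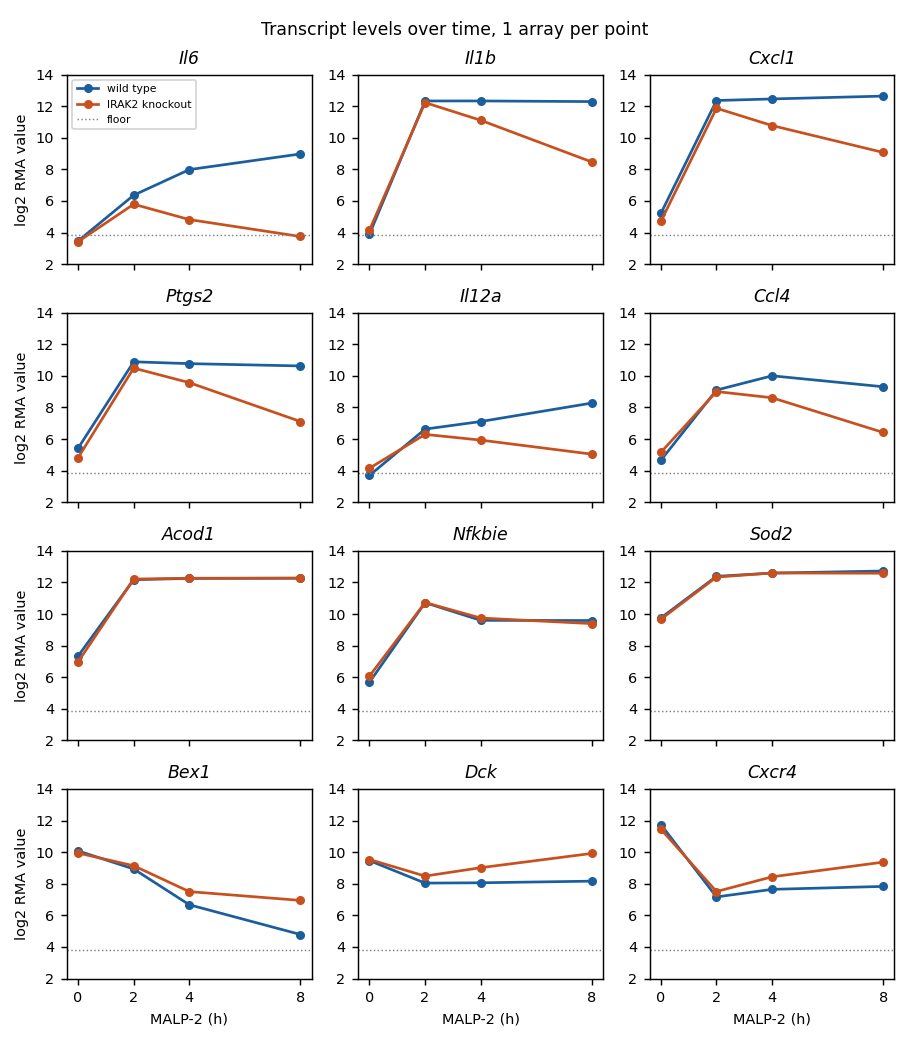
Log2 RMA values of 12 named genes at 0, 2, 4 and 8 h of MALP-2 (x axis) in wild type (blue) and IRAK2 knockout (orange), 1 array per point; the dotted line is the floor of 3.83. In the upper 6 panels the genotypes are close at 2 h and apart at 8 h; in the next 3 they lie close throughout; in the lowest 3, repressed genes, the knockout is above wild type at 8 h.

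The other induced genes furthest below wild type were of mixed roles. Ptx3, which encodes the soluble pattern-recognition protein pentraxin 3, measured 3.84 and 6.67 in wild type at 0 h and 8 h against 3.57 and 4.21 in the knockout, a difference of -2.46 at 8 h and -0.27 at 0 h (adjusted p = 0.0058 in limma). Ccl2, the monocyte chemoattractant, measured 5.14 and 7.85 in wild type against 5.66 and 5.69 in the knockout, so that its knockout level at 8 h had returned to its own 0 h level after 7.51 at 2 h. Its difference of -2.15 at 8 h had an adjusted p of 0.099 in limma. Wfdc21, a secreted WAP-domain protein, differed by -2.43 at 8 h and 0.21 at 0 h (adjusted p = 0.016). It is also among the neutrophil markers, whose log2 summed level at 8 h was 11.6 in wild type and 11.2 in the knockout, with Mpo, Elane, Ngp and Cxcr2 under the floor on all 8 arrays. All 8 measured neutrophil markers lay below wild type at 8 h, 3 of them at least 2-fold. Their median was -0.39 at 8 h and -0.14 at 0 h. Their part in the result was not tested. Zfp811, a zinc finger gene, differed by -3.14 and 0.05 (adjusted p = 0.041), and the organic anion transporter gene Slco3a1 by -2.21 and 0.23 (adjusted p = 0.041). U90926, Vnn3, a pantetheinase family member, and Upp1, the uridine phosphorylase, differed by -2.69, -2.22 and -2.17 at 8 h and were not called, with adjusted p of 0.059, 0.051 and 0.062. For Upp1 the knockout value of 3.51 was under the floor, so its difference is a lower limit.

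Mir155hg, the host transcript of microRNA-155, was also in this group. The array reads the host transcript and not the microRNA, whose mature form is shown to identify the product, with its seed, bases 2 to 8, in capitals.
mmu-miR-155-5p: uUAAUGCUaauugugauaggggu
The sequence is RefSeq's, at chr16:84714143-84714165 on the + strand of GRCm38.p6. The host transcript measured 3.37, 7.10, 5.96 and 6.35 in wild type against 3.13, 6.51, 4.67 and 4.06 in the knockout. It was induced in both genotypes at 2 h, and the knockout level was 0.94 above its own 0 h value at 8 h while wild type stayed 2.98 above. The 8 h difference was -2.29, against -0.24 at 0 h (adjusted p = 0.031 in limma).

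The knockout therefore kept different shares of the induction of different genes. Dividing each gene's log2 rise from 0 h to 8 h in the knockout by that in wild type gave a median of 69.1% over the 574 induced genes. The wild-type rise both chose these genes and divides the share, which by itself pushes the shares down. No share was computed with genes chosen on another array. The share was under 25% for 47 genes, 25 to 50% for 103, 50 to 75% for 194, 75 to 100% for 172 and 100% or more for 58. Il6 kept 5.91% and Ccl2 1.37%, whereas Il12a kept 19.4%, Ccl4 27.0%, Ptgs2 43.9%, Il1b 51.3% and Cxcl1 58.7%. A gene with a large fold difference could thus still be strongly induced: Cxcl1 in the knockout at 8 h was 4.36 log2 above its own 0 h level. In the knockout, 78 induced genes stood less than 0.5 log2 above their own 0 h level at 8 h. Of these, 24 had been at least 2-fold up at 2 h in the knockout, so their early induction was present.

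Neither the size nor the early shape of the wild-type response set genes apart completely. Of the 82 genes induced at least 8-fold in wild type, 38 were at least 2-fold lower in the knockout and 9 were within 0.3 log2, with a median of -0.91 at 8 h and 0.02 at 0 h. Genes that gained 0.5 log2 or more between 2 h and 4 h in wild type had a median 8 h difference of -0.48 (187 genes). The median was -0.53 for those level over that interval (321 genes) and -0.64 for those that declined (66 genes).

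Several strongly induced genes stayed near wild type. Acod1, the enzyme that makes itaconate, measured 7.35 and 12.26 in wild type at 0 h and 8 h against 6.98 and 12.28 in the knockout, a difference of 0.01 at 8 h and -0.37 at 0 h. Ptges, the microsomal prostaglandin E synthase that acts after Ptgs2, measured 5.88 and 10.01 in wild type against 5.43 and 9.74 in the knockout. Its 8 h difference was -0.27 on this probeset and -0.58 and -0.74 on its other, dimmer ones, against -3.52 and -2.30 for the probesets of Ptgs2. Nfkbie, an I-kappa-B protein that holds NF-kB in the cytoplasm, measured 5.69 and 9.59 against 6.07 and 9.39, a difference of 0.39 at 0 h and -0.20 at 8 h. Sod2, the mitochondrial superoxide dismutase, differed by -0.14 at 8 h and -0.08 at 0 h, and its other probesets gave -0.21 to -0.40 at 8 h. The adhesion molecule gene Icam1 differed by -0.11 at both times. The guanylate-binding protein gene Gbp2 differed by -0.13 and 0.09, but its other probeset gave -0.60 at 8 h. The receptor tyrosine kinase gene Met differed by -0.23 at 8 h and 0.07 at 0 h, the myeloid receptor gene Clec5a by -0.25 and 0.34, and the adhesion receptor gene Adgre4 by 0.16 and -0.19. Marcksl1 differed by 0.01 and 0.72, and its other probesets gave 0.17 to 0.53 at 8 h. In the limma fit the 8 h difference was 0.01 ± 0.16 SE for Acod1, -0.11 ± 0.16 SE for Sod2, -0.14 ± 0.18 SE for Icam1 and -0.19 ± 0.16 SE for Met. The adjusted p of the 10 genes ran from 0.621 for Met to 0.99 for Acod1, which does not show that the genotypes were alike.

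The inflammatory cytokines were lower as a group. Of 22 listed genes 17 were measured, 13 of them induced in wild type. Of the 17, 16 lay below wild type, 11 were at least 2-fold lower and 0 higher. The median difference was -1.27 at 8 h and 0.07 at 0 h. Over all measured genes it was -0.01 at both times, with 1.21% at least 2-fold lower. Over all induced genes it was -0.52 at 8 h, with 19.5% at least 2-fold lower. Both backgrounds stand beside the lists below too. Il6, Il12a, Inhba, Il1a and Tnf fell in the limma fit, 5 of 16 tested. Tnf measured 5.46 and 11.35 in wild type against 5.48 and 10.08 in the knockout, a difference of -1.27, so the knockout still induced it by 4.60 log2. Il1a measured 5.68 and 9.67 in wild type against 5.30 and 8.25 in the knockout. Inhba, the activin A subunit, differed by -1.97 at 8 h and 0.23 at 0 h. Il18 and Il12b differed by -1.73 and -1.31 at 8 h and by 0.365 and -0.095 at 0 h. Il1rn, the interleukin-1 receptor antagonist, differed by -0.21 at 8 h, with 10.78 in wild type and 10.58 in the knockout, and by 0.48 at 0 h. Its log2 rise was thus 2.35 in wild type against 1.66 in the knockout. Il10 and Il23a were under the floor in both genotypes and were not measured at 8 h.

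The chemokines divided by gene. Of 11 measured CC chemokines, 7 of them induced in wild type, 6 were at least 2-fold lower and 0 higher. Of all measured genes 1.21% were at least 2-fold lower, and of induced genes 19.5%. The CC chemokine median was -1.45 at 8 h and 0.22 at 0 h. That median depended on the setting, at -0.54 with each gene's 0 h difference subtracted and -0.71 without a floor. Ccl4, Ccl7 and Ccl8 fell, although Ccl8 was already -3.42 apart at 0 h. Ccl7, a monocyte chemoattractant, measured 3.77 and 5.71 in wild type against 3.99 and 3.78 in the knockout. Ccl3 measured 12.80 in wild type and 11.35 in the knockout at 8 h, with a difference of 0.39 at 0 h. Ccl5 differed by -0.33 at 8 h and -0.31 at 0 h, and Ccl9 by 0.245 and 0.755. All 6 neutrophil-attracting CXC chemokines lay below wild type, 2 of them at least 2-fold, with a median of -0.86 at 8 h and 0.09 at 0 h. Cxcl2 measured 11.87 in wild type and 10.94 in the knockout, and Cxcl3 10.83 and 9.61. Cxcl1 was the called member, and Cxcl2 and Cxcl3 kept 86.0% and 82.9% of their log2 induction against the 58.7% of Cxcl1. Expression of Cxcl14 fell too, but it was not induced, and it differed by -1.20 at 0 h.

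**Figure D3:**
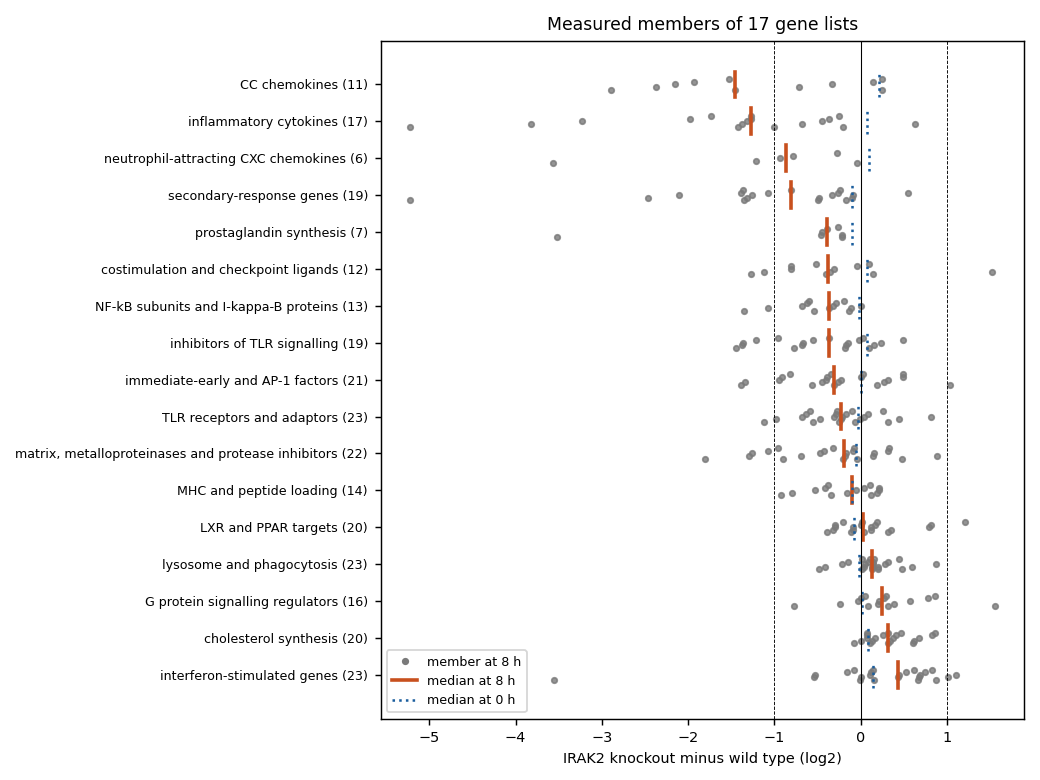
IRAK2 knockout minus wild-type difference (x axis, log2) of each measured member at 8 h (grey points) of 17 gene lists, with the list's median at 8 h (orange bar) and at 0 h (blue dotted bar); the number of measured members is in parentheses and dashed lines mark 2-fold. CC chemokines and inflammatory cytokines have the lowest 8 h medians, -1.45 and -1.27; with each gene's 0 h difference subtracted the CC chemokine median is -0.54.

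Genes of the secondary response are known to need new protein synthesis for their induction. Of 19 measured members, 17 of them induced in wild type, 9 were at least 2-fold lower. The same held for 1.21% of all measured genes and 19.5% of induced genes. The median was -0.81 at 8 h, against -0.52 for induced genes, and -0.10 at 0 h. Without a floor the median was -0.49. The members that fell were Il6, Ptx3, Socs3 and Cp, which encodes the copper-carrying ferroxidase ceruloplasmin. Cp measured 6.19 and 9.20 in wild type against 6.11 and 7.10 in the knockout. Lcn2, the siderophore-binding lipocalin, measured 3.46 and 11.51 in wild type against 3.52 and 10.15 in the knockout, a difference of -1.35 with an adjusted p of 0.079 in limma. Marco, a scavenger receptor gene, measured 11.01 and 9.75 at 8 h. Others of the same list were near wild type, among them Slpi at -0.17, Saa3 at -0.09 and Mmp13 at -0.09, with 0 h differences of -0.28, 0.21 and 0.505.

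Within the NF-kB system itself the changes were unequal. Of 13 measured NF-kB subunits and I-kappa-B proteins, 10 were induced in wild type, 12 lay below wild type and 2 were at least 2-fold lower. Of all induced genes 19.5% were at least 2-fold lower. The list's median was -0.37 at 8 h, against -0.52 for induced genes, and -0.02 at 0 h. Nfkbiz, a nuclear I-kappa-B protein that is known to be needed for Il6 transcription, fell. It measured 7.38, 11.85, 11.39 and 11.08 in wild type against 7.22, 11.69, 10.19 and 9.73 in the knockout, so its levels parted at 4 h. Nfkb2, the p100 precursor, differed by -1.08 at 8 h and -0.02 at 0 h (adjusted p = 0.164 in limma). Rela and Nfkbia, the p65 subunit and the main cytoplasmic inhibitor, differed by 0.00 and -0.13 at 8 h and by 0.21 and -0.23 at 0 h.

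Some inhibitors of the pathway fell. Of 19 measured members 14 lay below wild type and 5 above it, 4 were at least 2-fold lower and 0 higher, and Zc3h12a, Socs3 and Cish fell. Of the 19, 8 were induced in wild type. The median was -0.37 at 8 h and 0.08 at 0 h. At 8 h it was -0.01 over all measured genes and -0.52 over all induced genes. Zc3h12a, the endonuclease Regnase-1 that degrades Il6 messenger RNA, measured 5.25, 8.89, 8.41 and 7.98 in wild type against 4.76, 8.71, 7.27 and 6.53 in the knockout. Socs3, a feedback inhibitor of cytokine receptors, measured 7.24, 11.12, 10.97 and 10.84 in wild type against 7.01, 11.01, 10.49 and 9.47 in the knockout. Both were close to wild type at 2 h. Dusp16, a MAP kinase phosphatase gene, differed by -1.38 at 8 h and 0.08 at 0 h (adjusted p = 0.062 in limma). Irak3, the inhibitory IRAK family member, measured 10.90 in wild type and 10.23 in the knockout at 8 h, with a difference of -0.03 at 0 h.

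Among immediate-early factors Egr1 and Ier3 fell and 0 of the list rose. Of 21 measured, 5 of them induced in wild type, 2 were at least 2-fold lower and 1 higher, against 1.21% and 0.686% of all measured genes. The median was -0.31 at 8 h and 0.01 at 0 h. Egr1 and Ier3 differed by -1.39 and -1.34 at 8 h and by -0.05 and -0.09 at 0 h. Fos was 1.04 above wild type at 8 h and 0.21 at 0 h, and was not called (adjusted p = 0.078 in limma). Egr1 was not induced at these times in wild type, at 8.09, 7.94, 7.52 and 7.66, and declined in the knockout from 8.04 to 6.27.

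Matrix and activin genes gave further members that fell. Mmp2, a gelatinase, measured 5.23 and 6.93 in wild type against 4.97 and 5.13 in the knockout. Vcan, the proteoglycan versican, and Lox, which crosslinks collagen, differed by -1.29 and -1.26 at 8 h and by -0.38 and -0.39 at 0 h. Of the 22 measured matrix genes, 9 of them induced in wild type, 4 were at least 2-fold lower and 0 higher, with a median of -0.19. At least 2-fold lower were 1.21% of all measured genes and 19.5% of induced genes. Fst, the activin-binding follistatin, measured 5.46 and 7.12 in wild type against 4.95 and 4.98 in the knockout, and so fell together with Inhba, whose product it binds. The other 17 measured members of the activin and TGF-beta list were within 2-fold. Mesothelial and stromal markers, which share such genes, had a log2 summed level of 11.6 in wild type and 11.5 in the knockout at 8 h, with Msln, Krt18, Krt19 and Lum under the floor on all 8 wild-type and knockout arrays. Of the 8 measured markers 6 lay below wild type, with a median of -0.47 at 8 h and -0.21 at 0 h. The markers with the largest 8 h differences were Dcn and Pdgfra, of fibroblasts, at -0.81 and -0.79, with -0.25 and -0.29 at 0 h. The mesothelial factor Wt1 differed by -0.58 at 8 h and -0.69 at 0 h, and the collagen gene Col1a2 by -0.56 and 0.06. Their part in the result was not tested, and in such bulk RNA fewer cells of a type and less RNA per cell cannot be told apart.

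Other called genes, chosen after their values were seen, included F3, the tissue factor that starts coagulation, at -1.17 at 8 h and -0.23 at 0 h. Hcar2, a niacin receptor, differed by -1.68 and 0.15, Gpr18, a lipid receptor, by -2.15 and -0.06 and the zinc transporter gene Slc39a14 by -1.25 and -0.29. Cd69, an early leukocyte activation antigen, differed by -1.31 and -0.56. Slc7a2, the inducible arginine transporter, measured 7.98 and 11.21 in wild type against 7.33 and 9.80 in the knockout, and its other 3 probesets gave -0.61 to -1.18 at 8 h. Mki67, known as a marker of proliferating cells, measured 6.04 and 8.30 in wild type against 5.94 and 6.86 in the knockout. It was the only called member of the cell cycle list, whose 29 measured genes had a median of 0.13. Of that list 2 were at least 2-fold lower, Mki67 and Ccnd2, the latter at -1.30 at 8 h and -0.18 at 0 h.

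Few induced genes were above wild type. Slamf8, a SLAM family surface receptor of macrophages, was the only induced gene at least 2-fold higher. It measured 6.56 and 8.02 in wild type against 7.66 and 9.54 in the knockout, so most of its 8 h difference of 1.53 was present at 0 h, as 1.10 (adjusted p = 0.031 in limma). Procr, the endothelial protein C receptor gene, differed by 0.98 at 8 h and 0.35 at 0 h (adjusted p = 0.063). Clec4n, the gene of the C-type lectin dectin-2, differed by 0.75 at 8 h and 0.01 at 0 h. AA467197 differed by 0.93 at 8 h and -0.67 at 0 h.

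Interferon-stimulated genes leaned the other way from the cytokines. Of 23 measured members 17 lay above wild type, 2 were at least 2-fold higher and 1 at least 2-fold lower. Over all measured genes those shares were 0.686% and 1.21%. The median was 0.44 at 8 h and 0.14 at 0 h. With each gene's 0 h difference subtracted it was 0.16. Ifi204 and Ifit2 differed by 1.11 and 1.02 at 8 h and by 0.38 and 0.13 at 0 h. Neither was called, with adjusted p of 0.159 and 0.457 in limma. Oasl1 and Ifit1, which were induced in wild type, differed by 0.83 and 0.62 at 8 h and by 0.58 and 0.79 at 0 h. The lower member was Ifi202b, at -3.56, which had been -3.44 apart at 0 h.

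Of the genes repressed in wild type, the 12 with the highest 8 h difference are given here and in the next paragraph. Trp53inp1, named from the list of apoptosis regulators, is given with them. Bex1, a small adaptor protein gene, measured 10.08, 8.93, 6.67 and 4.79 in wild type against 9.94, 9.14, 7.50 and 6.95 in the knockout. Its repression was thus shallower in the knockout, with a difference of 2.16 at 8 h and -0.13 at 0 h (adjusted p = 0.032 in limma). Dck, the deoxycytidine kinase gene, measured 9.46, 8.04, 8.06 and 8.16 in wild type against 9.53, 8.48, 9.02 and 9.92 in the knockout. It was repressed early in both genotypes and returned past its 0 h level in the knockout alone (difference 1.76, adjusted p = 0.031). Cxcr4, the receptor of the chemokine Cxcl12, measured 11.74, 7.17, 7.65 and 7.83 in wild type against 11.45, 7.51, 8.44 and 9.37 in the knockout. It dropped steeply by 2 h in both and had recovered further in the knockout at 8 h (1.54, adjusted p = 0.040).

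Other repressed genes were also higher at 8 h. Rgs2, a G protein signalling inhibitor, measured 10.48, 4.99, 6.08 and 6.59 in wild type against 10.52, 5.62, 7.50 and 8.15 in the knockout, and its other probesets gave -0.12 to 1.77 at 8 h. Dio2, the deiodinase that activates thyroid hormone, differed by 2.05 at 8 h but by 0.81 at 0 h. Gpr176, an orphan receptor, differed by 1.95 and 0.29, the glycosyltransferase gene Gcnt1 by 1.65 and 0.16 and the adhesion molecule gene Cadm1 by 1.69 and 0.46. Emp1, a membrane protein gene, differed by 1.48 and 0.02. Sesn1 and Trp53inp1, both known as p53 targets, differed by 1.39 and 1.33 at 8 h and by -0.08 and -0.04 at 0 h. These genes rose in the limma fit, but with probesets averaged their adjusted p in limma ran from 0.0555 to 0.163, so none was called. Nor were Dck and Cxcr4, whereas Bex1 kept the call. Cxcr4 and Gpr176 have 1 probeset each, so they lost the call in the refit of all genes, with their own values unchanged. Frmd4b at 1.54 and Scpep1 at 1.44 were not called (adjusted p of 0.162 and 0.078). The chosen probeset gave the larger value for some of them, as other probesets gave 0.53 and 0.77 for Sesn1 and 0.55 for Scpep1. Over all repressed genes the knockout kept a median of 65.4% of the wild-type log2 decline, and 83 genes were back within 0.5 log2 of their own 0 h level. The wild-type decline also chose these genes, which by itself pushes that share down.

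Part of the 8 h difference was present before stimulation. Of the 137 lower genes 13 were also at least 2-fold lower at 0 h and 98 were within 0.5 log2 of wild type at 0 h. Of the 78 higher genes 6 were also at least 2-fold higher and 57 were within 0.5 log2. Npy, which encodes neuropeptide Y, measured 9.91 and 8.58 in wild type at 0 h and 8 h and 3.59 and 3.72 in the knockout, which was under the floor at both times. Its difference was -6.31 at 0 h and -4.86 at 8 h, so it had narrowed by 8 h from the wild-type side. B3galt6, a galactosyltransferase gene, differed by -3.09 and -3.70, the p200-family gene Ifi202b by -3.44 and -3.56 and Lancl2 by -1.68 and -2.46. The other, far dimmer probesets of B3galt6 gave -0.08 and -0.13 at 8 h. Those of Lancl2, under the floor in both genotypes at 8 h, gave 0.03 and 0.00. On the higher side Cap1, an actin-binding cyclase-associated protein, differed by 2.33 and 2.50, Fah by 1.58 and 1.64 and Zfp994 by 1.83 and 1.35. Cap1 had a second probeset with 0.94 and 1.21. Ctr9 differed by 1.86 and 1.49 on the chosen probeset, while its second brightest gave -0.00 and -0.63, so its direction is uncertain. Of the 87 called genes, 15 were at least 2-fold apart at 0 h, 12 lower and 3 higher.

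Genes that were neither induced nor repressed in wild type included some that parted from it during stimulation. Elavl4, a neuronal RNA-binding protein gene, measured 3.51, 3.54, 3.42 and 3.32 in wild type, all under the floor. In the knockout it measured 3.80, 4.16, 5.06 and 5.80, a difference of 0.29 at 0 h and 2.49 at 8 h (adjusted p = 0.061 in limma). Its other probesets gave 0.82 and 0.34 at 8 h. Ednrb, the endothelin B receptor gene, differed by 0.20 and 1.47, and its other probesets gave 0.25 and 0.28 at 8 h. Adgrl2, an adhesion receptor gene, differed by -0.28 at 0 h and fell to 8.35 in the knockout against 10.001 in wild type at 8 h. Ighm, the immunoglobulin mu chain of B cells, measured 7.92 and 7.54 in wild type against 5.87 and 5.42 in the knockout. The B cell markers together had a log2 summed level of 8.44 and 8.28 in wild type against 7.20 and 7.08 in the knockout at 0 h and 8 h, with 5 and 3 of 8 at or above the floor. Pax5, Cr2 and Fcer2a were under the floor on all 8 arrays. Their part in these differences was not tested.

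**Figure D4:**
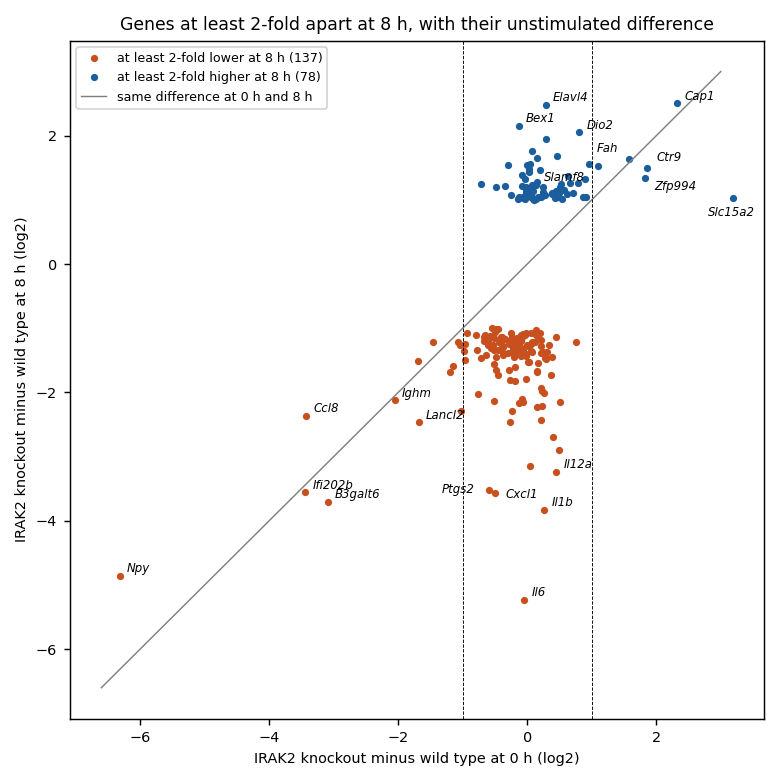
IRAK2 knockout minus wild-type difference at 0 h (x axis, log2) and 8 h (y axis, log2) of the 137 genes at least 2-fold lower (orange) and 78 at least 2-fold higher (blue) at 8 h; the grey line marks equal differences and dashed lines mark 2-fold at 0 h. Npy, B3galt6, Ifi202b and Cap1 lie beyond 2-fold at both times, whereas Il6, Il1b, Il12a and Bex1 lie within 0.5 log2 of 0 at 0 h.

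Most of the lower genes were not yet 2-fold lower at 2 h and 4 h. Of the 137, 16 were at least 2-fold lower at 2 h and 47 at 4 h, and their median difference went from -0.19 at 0 h to -0.36, -0.81 and -1.35. Of the 78 higher genes 11 were at least 2-fold higher at 2 h and 12 at 4 h, with medians of 0.15, 0.46, 0.71 and 1.16. The 8 h values of these genes chose them and are descriptions.

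The double knockout of IRAK1 and IRAK2 at 8 h shares the wild-type array with this comparison, so its values are given beside those of the IRAK2 knockout with no test. Il1b measured 4.09 in the double knockout, near the 3.90 of unstimulated wild type, against 8.46 in the IRAK2 knockout. Cxcl1 measured 5.35 against 9.07, Ptgs2 5.72 against 7.11, Lcn2 3.42 against 10.15 and Socs3 6.55 against 9.47. For Il6 both were under the floor, at 3.63 and 3.75. Among genes near wild type in the IRAK2 knockout, Acod1 measured 11.73, Gbp2 9.59 and Met 10.43 in the double knockout, whereas Marcksl1 measured 8.91 against 11.45 and Clec5a 7.09 against 8.89. Of repressed genes, Cxcr4 measured 11.73 against 9.37, close to the 11.74 of unstimulated wild type. The 2-fold line divided genes that hardly differed: Traf1 and Osm lay just inside on the lower side at -1.001 and -1.006, and Dip2c and Arg1 just outside at -0.997 and -0.996. Chchd6 and Tob1 lay just inside on the higher side at 1.001 and 1.007, and Usp14 and Mettl7a1 just outside at 0.998 and 0.997.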

How the data were processed

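RNA was extracted with Trizol and labelled with the NuGEN Ovation system per the labels' protocols. The deposited values are on a log2 scale and were made by the authors with RMA, per the submitters' processing notes, version not given in the sources used here. Probesets were named from the platform annotation, with symbols updated through the RefSeq gene table: 34958 of 45101 had 1 symbol, 932 several and 9211 none. Each of 18193 genes took the probeset with the highest mean over 11 arrays (the double-knockout 0 h array was left out). The fit used limma 3.58.1 in R 4.3.3, with Benjamini-Hochberg adjustment over the genes whose mean value reached the floor. It has 2 residual degrees of freedom, and its p-values do not measure the spread between mice. On simulated data for this comparison (10852 genes) it recovered 43 of the 100 genes given a gap of 1 log2 and 97 of the 100 given 2 log2, and called 10 others. The simulated gaps grew from 2 h along the model's own straight line in log2 time. Noise was normal with the fit's estimated spread, and the double knockout had no effect. Gaps of other shapes, such as that of Il1b, were not simulated, so these rates may not hold for the real genes. RMA sets all arrays to a common distribution, so a shift of all transcripts together cannot be seen, and log2 differences of dim probesets are compressed. Named genes are Irak2 and Irak1, fixed numbers of the most extreme genes of each response class, the strongest induced genes near wild type and up to 4 members of each of 43 gene lists; any others were chosen after their values were seen. The members and lists were chosen with earlier results of these data known. Promoters and microRNA-155 were read from RefSeq tables of GRCm38.p6. Alternatives changed the probeset rule, floor, centring and fit. Array quality was checked: actin 5′ minus 3′ signal was -3.58 in wild type and -3.72 in the knockout at 8 h.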

Additional observations from a re-analysis of the deposited data

How the results depend on the processing

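No paired analysis was possible because each genotype and time has 1 array and the labels carry no replicate numbers. With the mean of all probesets of a gene, 89 genes were at least 2-fold lower and 31 higher, and limma called 32 lower and 4 higher, of which 35 of 36 were among the 87. Limma called 567 and 519 from the 6 arrays of wild type and IRAK2 knockout, and 157 and 112 with an intensity trend. With the 0 h difference subtracted, the median was 0.51 for repressed genes, -0.54 for CC chemokines, 0.16 for interferon-stimulated genes, -0.17 for chemokine and formyl peptide receptors, 0.16 for efferocytosis and complement genes, -0.0698 for B cell markers and -0.0681 for mesothelial and stromal markers. Without a floor it was -0.71 for CC chemokines, -0.49 for secondary-response genes, -0.11 for mesothelial and stromal markers, and -0.0897 for T and NK cell markers, which reversed. With the floor 1 log2 higher it was -1.07 for secondary-response genes, -0.75 for neutrophil markers and -1.40 for B cell markers. With probesets averaged it was -0.99 for inflammatory cytokines and -0.17 for chemokine and formyl peptide receptors. For repressed genes, the wild-type 0 h and 8 h arrays also chose the genes, which by itself pushes the 0.51 up. The cause of these shifts was not tested beyond the genes each setting keeps. The other 361 of these values stayed within set limits: 1.5-fold for counts, 0.1 log2 for medians of response classes and 0.249 log2 for medians of lists. Direction was checked only for medians at least that large, so smaller ones may have changed sign. Efferocytosis and complement genes, at -0.12 in the main setting, and chemokine and formyl peptide receptors, at 0.08, changed sign in the settings above. Single genes reversed when the 0 h difference was subtracted (Npy 1.46, Ccl8 1.06, Ctr9 -0.37, Zfp994 -0.48) or without probesets ending in _x_at or _s_at (Ctr9 -0.63, Adm 0.0261, whose remaining probeset was under the floor). Differences with the lower value under the floor are lower limits, and with 1 array per group no setting gives the spread between mice.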

Other observations

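The medians of metabolic and housekeeping groups lay near wild type at 8 h, with few members 2-fold apart. Of 12 measured ribosomal protein genes 1 was at least 2-fold lower, with a median of -0.06 at 8 h and 0.00 at 0 h. That gene was Rps6, at -1.21 at 8 h and -1.07 at 0 h (adjusted p = 0.037 in limma). Rps9 was 0.86 higher on its chosen probeset, and its other probesets gave 0.19 and -0.26. Of 20 measured genes of cholesterol synthesis 19 lay above wild type and 0 differed by 2-fold, with a median of 0.32 at 8 h and 0.09 at 0 h, and 0 of 20 were called by limma. Idi1, an isomerase of the mevalonate route, measured 8.78 and 8.96 in wild type at 0 h and 8 h and 8.94 and 9.82 in the knockout. Nsdhl and Dhcr7, which act late in the route, differed by 0.83 and 0.68 at 8 h and by 0.08 and -0.02 at 0 h. Of 23 measured glycolysis and hypoxia genes 1 was at least 2-fold lower, with a median of 0.21 at 8 h and 0.17 at 0 h. That gene was Adm, the vasodilator adrenomedullin, at -2.01, whose other probeset was under the floor in both genotypes. Lysosomal genes (23 measured, median 0.13), unfolded protein response genes (22, median 0.11) and oxidative stress genes (19, median 0.08) had 0 members 2-fold apart. Among MHC and peptide loading genes (14 measured, median -0.10) Cd74 and H2-Ab1, of the class II pathway, differed by -0.92 and -0.80 at 8 h and by -0.80 and -0.78 at 0 h.

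Colony-stimulating factors and their receptors gave 2 genes at least 2-fold lower of 8 measured, against 1.21% of all measured genes. Csf2, which encodes GM-CSF, measured 3.45, 5.56, 4.32 and 4.95 in wild type against 3.67, 4.14, 3.50 and 3.56 in the knockout, where it was under the floor at 8 h, and it was already -1.42 apart at 2 h. Csf3r, the G-CSF receptor, measured 7.37 in wild type and 5.98 in the knockout at 8 h. The neutrophil markers, which include Csf3r, Camp and Wfdc21, had a log2 summed level of 11.6 in wild type and 11.2 in the knockout at 8 h and of 10.8 and 10.5 at 0 h. All 8 measured ones lay below wild type at 8 h, with a median of -0.39, against -0.14 at 0 h. Mpo, Elane, Ngp and Cxcr2 were under the floor on all 8 wild-type and knockout arrays, and the part of neutrophils in these differences was not tested.

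Cpt1a, which carries fatty acids into mitochondria, was the only LXR and PPAR target at least 2-fold apart among 20 measured. It measured 9.91 and 8.40 in wild type against 9.90 and 9.60 in the knockout, but its other probesets gave 0.98 and 0.28 at 8 h. Slc15a2, a peptide transporter, was among the higher genes at 1.03 with a larger difference of 3.19 at 0 h, which had narrowed by 8 h from the knockout side.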
